A study of Mus musculus with 12 samples.

Results

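Type I interferon-stimulated antiviral genes were measured in untreated murine neuroblastoma tumors and in tumors treated with high intensity focused ultrasound (HIFU), which was used for mechanical fractionation of the tumor, per the series text. The set was a list of 36 gene symbols, and each gene was represented by its probe set with the highest mean signal. Of these, 35 had a named probe set among the 19505 genes with a name on the array. The remaining gene, Ifi44, was not analysed here. The rule names the genes by symbol and uses no difference between groups. The genes were, however, chosen with earlier results of these data known. Counts set against all probe sets below are therefore descriptions and no independent test of the set.

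Total RNA came from 12 frozen tumors, 1 Affymetrix Mouse Clariom S array each, in 4 groups of 3. Controls were untreated neuroblastoma tumors, and the other groups were HIFU-treated tumors labelled 24, 48 and 72 hrs, read here as hours after HIFU, which is an assumption. All tumors were grown from neuroblastoma cells inoculated into A/J mice. The sources used here do not give the name of the cell line, the age and sex of the mice or the ultrasound dose. No label states that the tumors within a group are from different mice, so the p-values measure only the spread between these samples, which may be technical. Values are log2 signals, so a difference of 1 is a doubling. Genes that define the tissue were well above the lowest signals in every tumor: Th, the rate-limiting enzyme of catecholamine synthesis, read between 10.46 and 13.76, Dbh between 11.99 and 16.46, and Hand2 at or above 8.51. The lowest and the highest signal in the deposited values were 1.75 and 19.93.

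Interferons alpha and beta bind the receptor made of IFNAR1 and IFNAR2, and the kinases JAK1 and TYK2 then phosphorylate STAT proteins, among them STAT2. With IRF9 these form the complex ISGF3, which binds the interferon-stimulated response element (ISRE) in the promoters of many genes. The induced proteins sense viral RNA and DNA, degrade RNA, block translation and virus release, and, in the case of USP18, switch the receptor off again. Interferon gamma acts mainly through a different element, the gamma-activated site (GAS). In tumors, this program is known as a response of tumor, stromal and immune cells to nucleic acids from damaged cells.

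The promoter table from RefSeq (build GRCm38.p6, a C57BL/6J reference and not the A/J strain) held 25 of the 36 genes, with 250 bases before and 50 bases after each start. An ISRE-type match, GAAANNGAAA on either strand, lay in 11 of these 25 promoters (44.0%), against 3.99% of the 27025 genes with a promoter of the same length in the table. The longer form GAAANNGAAAC, which is contained in the first motif, lay in 9 of 25 (36%) against 0.944%. A GAS-type match, TTCNNNGAA, lay in 6 of 25 (24.0%) against 9.55%, and those of Bst2, Oas1a and Eif2ak2 held both types. The stretches below are shown because they carry the element through which ISGF3 acts. They belong to the genes with an ISRE-type match and the smallest p of the test over all times, and capitals mark the match, which reads TTTCNNTTTC where it lies on the opposite strand. Each is printed 5′ to 3′ along the gene.
Bst2, chr8:71537562-71537627, minus strand, bases -155 to -90 from the start: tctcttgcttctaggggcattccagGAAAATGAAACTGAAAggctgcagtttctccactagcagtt
Oas1a, chr5:120907526-120907570, minus strand, bases -45 to -1: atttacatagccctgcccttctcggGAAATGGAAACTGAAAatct
Stat2, chr10:128270251-128270310, plus strand, bases -247 to -188: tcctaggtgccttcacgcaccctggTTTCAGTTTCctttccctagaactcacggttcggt
Ifit1, chr19:34640760-34640838, plus strand, bases -129 to -51: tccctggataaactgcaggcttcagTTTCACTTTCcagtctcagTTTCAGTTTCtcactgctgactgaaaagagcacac
Isg15, chr4:156200850-156200921, minus strand, bases -103 to -32: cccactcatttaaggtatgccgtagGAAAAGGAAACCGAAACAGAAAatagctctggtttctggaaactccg

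In Bst2, Oas1a and Isg15 the matches overlap in tandem, Ifit1 holds a separate pair, and Stat2 holds a lone match. In Eif2ak2, which also belongs to this set, the match GAAAACGAAA lay after the start, at bases 19 to 28. Among genes with a promoter and a probe set, the median difference from control was nearly the same with an ISRE-type match (11 genes: -1.54 at 24 h, -1.38 at 48 h and -0.55 at 72 h) and without one (13 genes: -1.55, -1.27 and -0.48). No match says only that these letters are not in this window.

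At 24 h all 35 genes had a lower mean signal than the controls, and the median difference was -1.67, against 0 over all 22206 probe sets. At 48 h all 35 were again lower, with a median of -1.44 against 0.01. At 72 h the median was -0.70 against -0.057, with 29 genes lower and 5 higher, and Rsad2 had the same mean as the controls. Below 0 lay 49.6%, 48.8% and 56.2% of all probe sets at the 3 times.

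None of the 35 genes passed an adjusted p of 0.05 in limma at any time, where the lowest adjusted p were 0.124, 0.199 and 0.255. This test also called few probe sets of any kind, 0.054% at 24 h (0.0045% lower), 0.0045% at 48 h (0% lower) and 0.00901% at 72 h (0% lower). At an unadjusted p under 0.05 in limma, 25 genes were lower at 24 h, 22 at 48 h and 11 at 72 h, against a background of 5.86%, 8.01% and 5.39%. None was higher at that p, against 3.98%, 5.3% and 5.85%. All 3 tumors lay below all 3 controls in 25 genes at 24 h (background 7.68%), 24 at 48 h (11.7%) and 3 at 72 h (10.1%). These 3, Ifi27, Ifi35 and Tor3a, were the genes with all 9 HIFU tumors below all controls, which held for 1.65% of probe sets.

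With the 3 HIFU groups averaged, the median difference from control was -1.35. No gene passed in limma after adjustment (lowest adjusted p = 0.102, 0.018% of probe sets passed, 0% lower), and 23 genes were lower at an unadjusted p under 0.05, against 8.59%. In the F test over all times 0 genes passed after adjustment (0.00901% of probe sets did) and 22 had an unadjusted p under 0.05, against 9.34%.

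The contrasts share their controls, and the number of genes called depended on how the arrays were used. Control 1 was the highest control in 33 of 35 genes (34.3% of all probe sets) and control 3 the lowest in 33 (37.4%). In those genes, leaving out control 3 raises the control mean and so enlarges the differences by construction. Without control 3, limma called 7 genes lower at 24 h, 8 at 48 h and 3 at 72 h, against 0.905%, 1.17% and 0.68% of probe sets, and 9 for the mean of the HIFU groups (1.37%). The F test then called 4 genes, against 0.666%. Those at 24 h were Bst2, Mx2, Oas1a, Parp9, Tor3a, Usp18 and Xaf1. With arrays weighted by their agreement with their group, 23, 16 and 15 genes were called lower, against 2.64%, 2.85% and 4.4% of probe sets, and 28 for the mean of the HIFU groups (9.87%). The weighted F test called 21 genes, against 6.7%. The weights were 1.25, 4.19 and 0.715 for controls 1 to 3 and 0.306 for replicate 2 at 72 h. They thus also play down control 3, so the weighted counts are no separate support for those without it. At an unadjusted p under 0.05 with at least a 2-fold change in limma, 25, 21 and 10 genes were lower, against 3.15%, 4.58% and 2.79%.

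**Figure D1:**
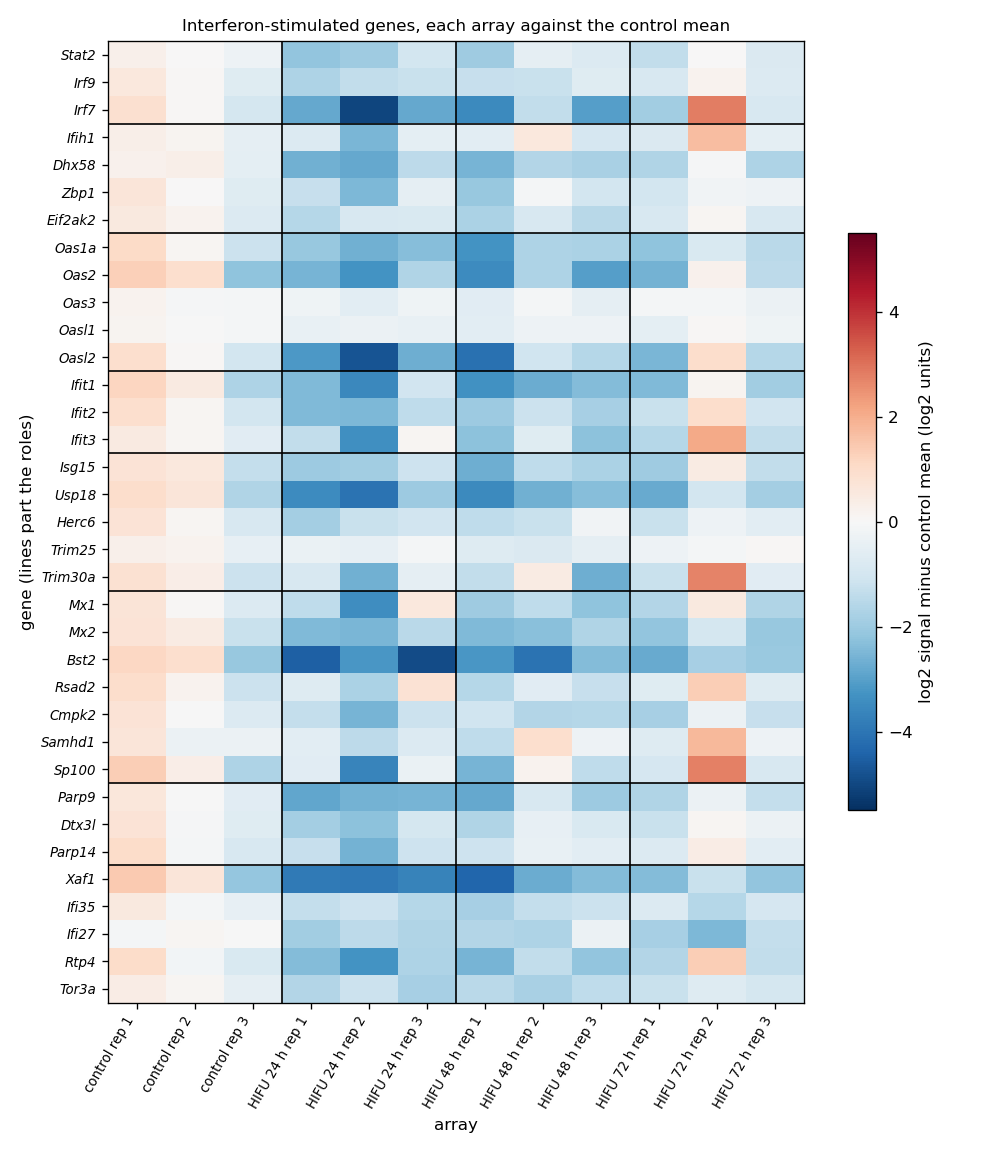
Heat map of 35 interferon-stimulated genes (rows, parted by role) on 12 arrays (columns, parted by group); colour gives the log2 signal minus the control mean. Most cells of the 24 h and 48 h columns are blue, with 31 to 35 of 35 genes per array below the control mean, and replicate 2 at 72 h has 15 of 35 below it.

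Among the signal transducers and transcription factors, all 3 genes lay below every control at 24 h and 48 h. Irf9, the DNA-binding subunit of ISGF3, read 8.02, 7.49 and 6.77 in controls 1 to 3, 5.73, 6.09 and 6.22 at 24 h, 6.15, 6.20 and 6.76 at 48 h, and 6.54, 7.60 and 6.67 at 72 h. The gap at 48 h was small, 6.76 against 6.77, and replicate 2 at 72 h was among the controls. Differences from control were -1.41, -1.06 and -0.49 ± 0.37 (limma SE, n = 3 per group), or 2.66-, 2.08- and 1.40-fold lower, with limma adjusted p of 0.274, 0.280 and 0.668.

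Irf7, the factor that amplifies interferon alpha production, read 9.76, 8.93 and 7.92 in controls, 6.05, 3.80 and 6.05 at 24 h, 5.38, 7.51 and 5.85 at 48 h, and 6.94, 11.70 and 7.98 at 72 h. The 24 h and 48 h tumors were all below the controls, whereas the 72 h tumors ran from below the lowest to above the highest control. Irf7 differed from control by -3.57 and -2.62 ± 1.10 at 24 h and 48 h (11.9- and 6.16-fold lower, limma adjusted p = 0.355 and 0.341). At 72 h its mean equalled that of the controls within 0.0033, and without replicate 2 the difference was -1.41. Stat2, the ISGF3 subunit specific to type I and III interferons, differed by -1.72, -1.07 and -0.70 ± 0.45, with limma adjusted p of 0.282, 0.346 and 0.602. Its promoter holds the lone match shown above.

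Of the 4 sensors of foreign nucleic acid, Dhx58 differed most in each contrast with control. Dhx58 (LGP2), a regulator of RIG-I-like receptors, read 6.65, 6.73 and 5.87 in controls, 3.77, 3.62 and 4.96 at 24 h, 3.85, 4.82 and 4.65 at 48 h, and 4.78, 6.36 and 4.70 at 72 h. Only replicate 2 at 72 h reached the controls. Its differences were -2.30, -1.98 and -1.14 ± 0.50 (4.92-, 3.94- and 2.20-fold lower, limma adjusted p = 0.204, 0.207 and 0.430).

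Eif2ak2 (PKR), the kinase that stops translation when it binds viral RNA, read 10.61, 10.25 and 9.32 in controls, 8.51, 9.19 and 9.22 at 24 h, 8.31, 9.20 and 8.54 at 48 h, and 9.16, 10.18 and 9.19 at 72 h. All 24 h and 48 h tumors were below the controls, and at 72 h replicates 1 and 3 were. The differences were -1.09, -1.38 and -0.55 ± 0.40, with limma adjusted p of 0.434, 0.228 and 0.661. Zbp1, a sensor of Z-form nucleic acid, differed by -1.40, -1.06 and -0.48. Ifih1 (MDA5), a sensor of long RNA duplexes, differed by -1.27 at 24 h, -0.30 at 48 h and 0.12 at 72 h. In Ifih1 a 48 h tumor (8.39) and a 72 h tumor (9.53), both replicate 2, exceeded the highest control (8.15), and the 72 h difference was -0.67 without that tumor.

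The oligoadenylate synthetases make the second messenger that activates RNase L. Oas1a read 8.2, 7.25 and 5.95 in controls, 5.04, 4.47 and 4.79 at 24 h, 3.86, 5.45 and 5.39 at 48 h, and 4.93, 6.30 and 5.66 at 72 h. Every tumor at 24 h and 48 h lay below the lowest control, although the controls themselves spanned more than the 24 h tumors. Oas1a differed from control by -2.37, -2.23 and -1.50 ± 0.58 (5.16-, 4.70- and 2.83-fold lower), with limma adjusted p of 0.254, 0.213 and 0.374.

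Oasl2, a family member with ubiquitin-like domains, read 11.72, 10.86 and 9.78 in controls, 7.62, 6.04 and 8.12 at 24 h, 6.68, 9.69 and 9.21 at 48 h, and 8.29, 11.76 and 9.20 at 72 h. The 24 h tumors were far below the controls, replicate 2 at 48 h was just below them, and replicate 2 at 72 h was above them all. Its differences were -3.53, -2.26 and -1.04 ± 0.98 (11.5-, 4.79- and 2.05-fold lower), with limma adjusted p of 0.301, 0.355 and 0.761. Oas2 differed by -2.51, -2.72 and -1.27, but its controls read 8.25, 7.88 and 4.72, and the third overlapped the tumors at every time. Oas3 (-0.34, -0.42 and -0.17) and Oasl1 (-0.38, -0.39 and -0.24) had probe sets in the lowest 25% of the array by mean signal, so their differences are of little weight. Probes of Oas1a may also read its close relatives such as Oas1g, and the same holds for Ifit1, Ifit3 and Trim30a and their near copies.

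IFIT proteins bind viral RNA that lacks the host cap methylation. Ifit2 read 7.89, 7.07 and 5.98 in controls, 4.54, 4.53 and 5.60 at 24 h, 4.97, 5.80 and 5.16 at 48 h, and 5.75, 7.94 and 5.91 at 72 h. No tumor at 24 h or 48 h reached a control, and replicate 2 at 72 h was just above the highest one. The differences were -2.09, -1.67 and -0.45 ± 0.61 (4.26-, 3.18- and 1.36-fold lower), with limma adjusted p of 0.329, 0.298 and 0.853.

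Ifit1 read 8.26, 7.60 and 5.41 in controls, 4.68, 3.54 and 6.05 at 24 h, 3.74, 4.38 and 4.69 at 48 h, and 4.65, 7.22 and 5.17 at 72 h. The groups overlapped at 24 h through replicate 3 and parted at 48 h. Ifit1 differed by -2.33, -2.82 and -1.41 ± 0.85 (5.04-, 7.06- and 2.66-fold lower, limma adjusted p = 0.423, 0.236 and 0.569). Ifit3, which stabilises IFIT1 on RNA, differed by -1.54, -1.72 and -0.28, and reached 10.16 in replicate 2 at 72 h against a highest control of 8.57.

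ISG15 is a ubiquitin-like protein that is attached to other proteins, and USP18 removes it and also blocks the interferon receptor. Usp18 read 10.42, 10.13 and 7.78 in controls, 6.0, 5.37 and 7.44 at 24 h, 5.94, 6.82 and 7.12 at 48 h, and 6.66, 8.42 and 7.58 at 72 h. All tumors at 24 h and 48 h lay below control 3, which itself read far below the other controls. Usp18 differed by -3.17, -2.82 and -1.89 ± 0.73 (9.02-, 7.05- and 3.71-fold lower, limma adjusted p = 0.215, 0.217 and 0.374).

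Isg15 read 6.97, 6.80 and 4.89 in controls, 4.24, 4.29 and 5.09 at 24 h, 3.52, 4.81 and 4.46 at 48 h, and 4.25, 6.66 and 4.88 at 72 h. Replicate 3 at 24 h exceeded control 3, and the 48 h tumors lay below all controls. Its differences were -1.68, -1.96 and -0.96 ± 0.67, with limma adjusted p of 0.458, 0.275 and 0.641. Herc6, the mouse ligase that attaches ISG15, differed by -1.37, -0.92 and -0.70. Trim25, a ubiquitin ligase of the RIG-I pathway, differed by -0.31, -0.67 and -0.10. Trim30a differed by -1.35 and -1.19 at 24 h and 48 h and by 0.29 at 72 h, where replicate 2 read 9.85 and the other tumors 5.89 and 6.52. Without that replicate the 72 h difference of Trim30a was -0.92.

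Restriction factors act on the virus or on the nucleotides it needs. Bst2 (tetherin), which holds budding virus at the cell surface, read 16.27, 16.02 and 13.05 in controls, 10.64, 11.93 and 10.21 at 24 h, 11.92, 11.07 and 12.74 at 48 h, and 12.35, 13.28 and 13.06 at 72 h. Every tumor at 24 h and 48 h was below the lowest control, and replicates 2 and 3 at 72 h were level with or just above control 3. Bst2 had the largest difference of the 35 genes at each time, -4.19, -3.20 and -2.22 ± 0.78 (18.2-, 9.21- and 4.65-fold lower), with limma adjusted p of 0.124, 0.202 and 0.351. Without control 3 its differences were -5.22, -4.24 and -3.25, and all 3 passed the threshold.

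Mx2, a dynamin-like GTPase, read 9.27, 8.97 and 7.26 in controls, 6.06, 5.97 and 7.03 at 24 h, 6.07, 6.22 and 6.84 at 48 h, and 6.33, 7.54 and 6.40 at 72 h. Only replicate 2 at 72 h overlapped the controls, above control 3. Its differences hardly varied with time, at -2.15, -2.12 and -1.74 ± 0.53 (4.43-, 4.36- and 3.35-fold lower, limma adjusted p = 0.255, 0.202 and 0.309). Its relative Mx1 differed by -1.41, -1.85 and -0.93, with replicate 3 at 24 h at 7.96 and within the controls. Cmpk2, a mitochondrial nucleotide kinase, differed by -1.67, -1.43 and -1.15.

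Rsad2 (viperin), which makes a chain-terminating nucleotide, differed by -0.54 at 24 h and -1.15 at 48 h. Samhd1, which degrades nucleotides, differed by -0.92, -0.25 and 0.27. Sp100, a nuclear body protein, differed by -1.55, -1.27 and 0.33. Replicate 2 at 72 h lay above the highest control in Rsad2, Samhd1 and Sp100, and without it the 72 h differences of Samhd1 and Sp100 were -0.49 and -0.90.

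PARP9 and DTX3L form an ADP-ribosylating ubiquitin ligase. Parp9 read 9.76, 9.11 and 8.52 in controls, 6.28, 6.52 and 6.56 at 24 h, 6.31, 8.23 and 7.12 at 48 h, and 7.48, 8.82 and 7.82 at 72 h. The 24 h tumors were close together and well below the controls, and the 48 h tumors were still all below. Parp9 differed by -2.68, -1.91 and -1.09 ± 0.49 (6.39-, 3.76- and 2.13-fold lower), with limma adjusted p of 0.124, 0.213 and 0.441.

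Dtx3l read 9.03, 8.22 and 7.60 in controls, 6.42, 6.02 and 7.30 at 24 h, 6.63, 7.83 and 7.43 at 48 h, and 7.06, 8.4 and 7.94 at 72 h. It was below the controls in all tumors at 24 h but not later. The differences were -1.70, -0.99 and -0.48 ± 0.49, with limma adjusted p of 0.316, 0.408 and 0.782. Parp14, another ADP-ribosyltransferase, was likewise below all controls at 24 h alone and differed by -1.67, -0.72 and -0.31.

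**Figure D2:**
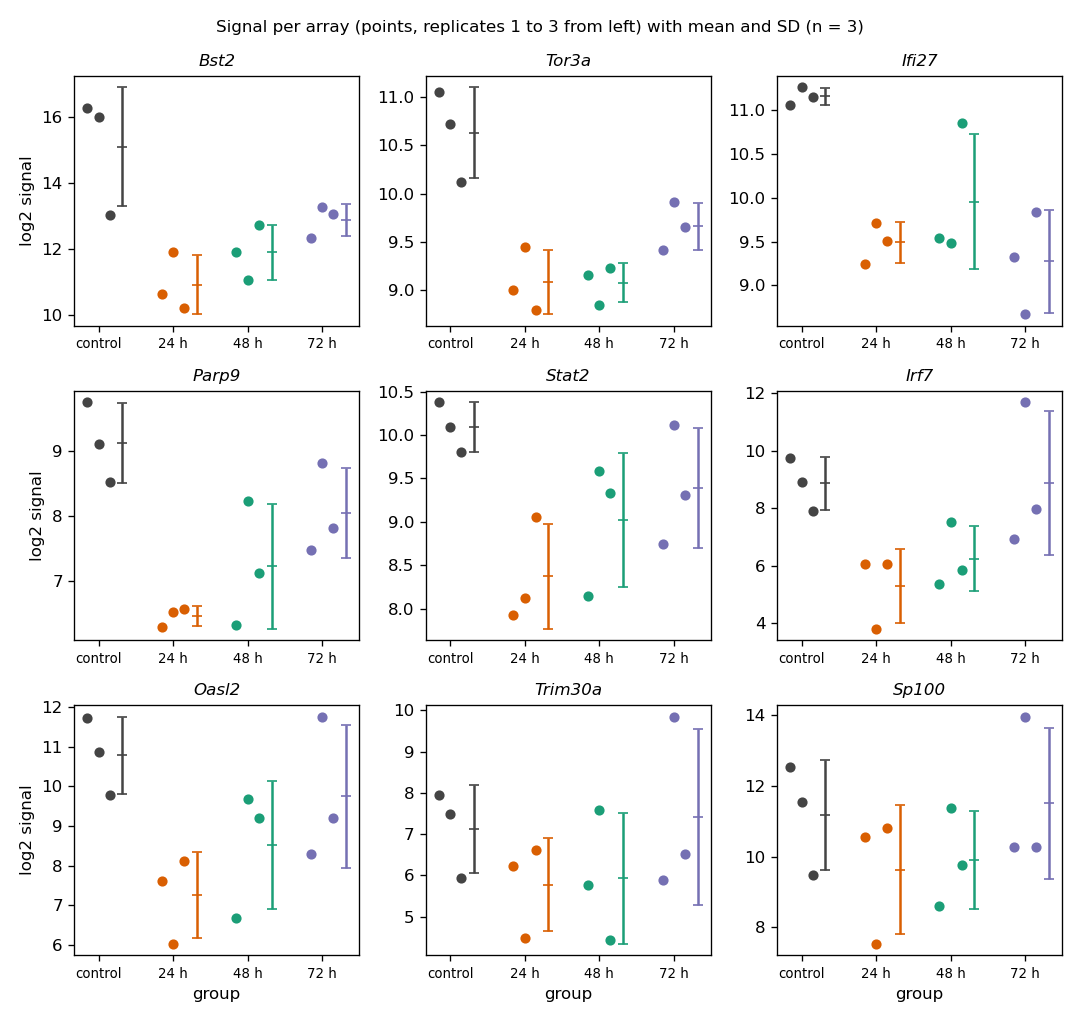
Log2 signal (vertical axes, which differ between panels) of 9 genes in controls and at 24, 48 and 72 h, with a point per array and the mean ± SD (n = 3) beside it. Ifi27 and Tor3a stay below the controls in all 9 HIFU tumors, while in Irf7, Trim30a and Sp100 replicate 2 at 72 h stands above the highest control.

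The remaining induced proteins held the genes that parted most fully from the controls. Tor3a, an ATPase of the endoplasmic reticulum, read 11.05, 10.72 and 10.12 in controls, 9.0, 9.45 and 8.80 at 24 h, 9.16, 8.85 and 9.23 at 48 h, and 9.42, 9.91 and 9.66 at 72 h. No HIFU tumor reached a control. It had the smallest p of the 35 genes in the test over all times (0.000452 unadjusted, 0.295 adjusted, limma F test), and differed by -1.55, -1.55 and -0.97 ± 0.28 (2.92-, 2.93- and 1.95-fold lower, limma adjusted p = 0.124, 0.199 and 0.302).

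Ifi27 read 11.06, 11.26 and 11.15 in controls, 9.25, 9.71 and 9.51 at 24 h, 9.54, 9.48 and 10.85 at 48 h, and 9.32, 8.67 and 9.84 at 72 h. All HIFU tumors lay below the controls, whose SD of 0.10 was the smallest of the 35 genes. Ifi27 differed by -1.67, -1.20 and -1.88 ± 0.38 (3.17-, 2.30- and 3.68-fold lower, limma adjusted p = 0.213, 0.256 and 0.255). It was also the only gene with its lowest group mean at 72 h, and its lowest tumor was replicate 2 at 72 h, the array that was the highest of the HIFU tumors in 29 of the 35 genes (17.2% of all probe sets). Ifi35 differed by -1.34, -1.44 and -1.08 and was below all controls in all tumors. Xaf1, a pro-apoptotic protein, differed by -3.84, -3.16 and -1.92, next to Bst2 in size at 24 h and 48 h. Rtp4, a chaperone of receptors, differed by -2.46, -2.03 and -0.54.

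**Figure D3:**
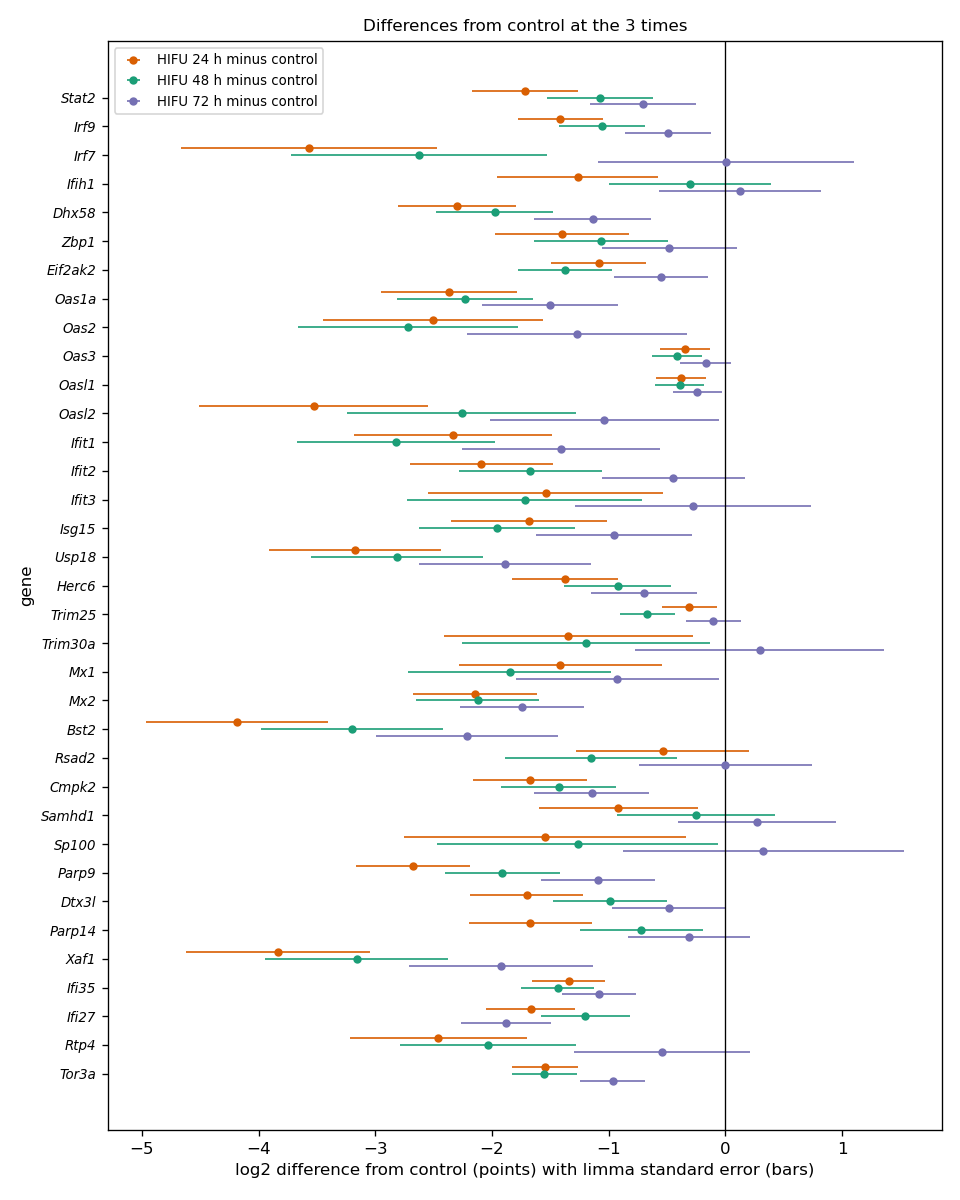
Log2 difference from control (horizontal axis) of each of 35 genes at 24, 48 and 72 h, with bars of 1 limma standard error. All points at 24 h and 48 h lie left of 0, and 5 genes lie right of it at 72 h (Irf7, Ifih1, Trim30a, Samhd1 and Sp100).

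Over time, the group mean was lowest at 24 h in 22 genes, at 48 h in 12 and at 72 h in 1. In the same 22 genes the order was 24 h, then 48 h, then 72 h. The share of all probe sets with these orders was not counted, so these counts show no trend particular to the set. The times themselves were not separated by the test. Between 48 h and 24 h the median difference was 0.32, no gene passed an adjusted p of 0.05 in limma (0% of probe sets did), and none had an unadjusted p under 0.05, against 2.04% of probe sets lower and 1.85% higher. From 24 h to 72 h the median difference was 1.02, with 34 of 35 genes higher at 72 h and 54.8% of probe sets lower. None passed in limma after adjustment (0% of probe sets did), and 12 had an unadjusted p under 0.05, against a background of 3.22% higher. In 9 genes all 72 h tumors lay above all 24 h tumors (background 4.53%): Irf9, Irf7, Oasl2, Ifit2, Bst2, Parp9, Parp14, Xaf1 and Rtp4. Between 72 h and 48 h the median difference was 0.82, 0 genes passed in limma after adjustment (again 0% of probe sets), and Irf7 and Trim25 had an unadjusted p under 0.05, against 3.33% of probe sets higher.

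The 72 h group was not uniform. Replicate 2 read above the highest control in 10 genes (28.6%, against 28.7% of all probe sets on that array), within the controls in 22 and below them in Ifi27, Ifi35 and Tor3a (8.57%, against 41.1%). Its count above the controls was thus at the background, and its count below them was under it. In those 10 genes its median deviation from the control mean was 1.75, against -1.23 and -0.89 in replicates 1 and 3. These genes were picked by their value in replicate 2, so this gap only describes the choice. Replicate 1 was below every control in 30 of 35 genes (background 25.6%) and replicate 3 in 23 (27.7%). Without replicate 2 the median difference at 72 h was -1.15, and 22 genes, not 3, had all 72 h tumors below all controls, against 14.1% of probe sets. Leaving out control 3 instead gave 19 genes, against 20.2%. The 5 positive differences at 72 h turned negative without replicate 2 in all 5 genes.

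Signals of other cell types differed between the same arrays. The median over 20 skeletal muscle genes, as a deviation from the control mean, was -1.30, -0.61 and 2.05 in controls 1 to 3 and between 2.23 and 5.51 in the 9 HIFU tumors, so control 3, lowest for most interferon-stimulated genes, was highest of the controls for muscle genes. With the muscle median as a covariate, the median differences of the 35 genes were -1.99, -1.69 and -1.0. By this median every HIFU tumor lay above every control, the lowest at 2.23 against 2.05 in control 3, so this fit extrapolates. It cannot tell treatment and muscle signal apart. Single muscle genes overlapped more: all 9 HIFU tumors were above all controls in 7 of the 20, against 390 of 22206 probe sets. The median over 17 neutrophil genes lay between -0.093 and 0.07 in controls, from -0.04 to 1.57 at 24 h, from 0.94 to 4.53 at 48 h and from 4.96 to 8.60 at 72 h. That of 16 monocyte and macrophage genes lay between -0.49 and 0.48 in controls. It was 1.76, -1.325 and 1.24 at 24 h, -0.093, 2.78 and -0.28 at 48 h, and 0.90, 4.05 and 1.37 at 72 h. For 17 neuroblastoma genes the median was between -0.45 and 0.81 in controls and between -0.34 and 0.30 at 24 h. It ran from -0.29 to 0.063 at 48 h and was 0.14, -1.63 and 0.37 at 72 h. Replicate 2 at 72 h thus stood highest for muscle, neutrophil and macrophage genes and lowest for neuroblastoma genes. Replicate 2 at 24 h was lowest for macrophage genes and for the 35 genes (median -2.53). Replicate 2 at 48 h was highest of its group for both. The median of 11 fibroblast genes was -0.68, -0.52 and 1.0 in controls 1 to 3 and between 0.22 and 6.40 in the HIFU tumors. That of 11 endothelial genes ran from -0.26 to 0.37 in controls and from 0.11 to 2.12 in the HIFU tumors, and that of 5 erythroid genes from -0.23 to 0.19 and from 0.093 to 5.74. All 3 of these lists were highest in replicate 2 at 72 h, and control 3 was the highest control for fibroblast and endothelial genes. The median of 18 T and NK cell genes lay between -0.25 and 0.215 in controls and between -0.70 and -0.205 at 24 h. It ran from -0.515 to -0.105 at 48 h and from -0.425 to 0.12 at 72 h. Of these 18 probe sets, 10 were in the lowest 25% of the array by mean signal, so their median says little of these cells. The median of 11 plasmacytoid dendritic cell genes, which include Bst2, lay between -0.40 and 0.24. The part of the muscle, stromal, blood and tumor cell signals in the differences above was not tested, and in bulk tissue fewer cells of a type and less RNA per cell cannot be told apart.

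**Figure D4:**
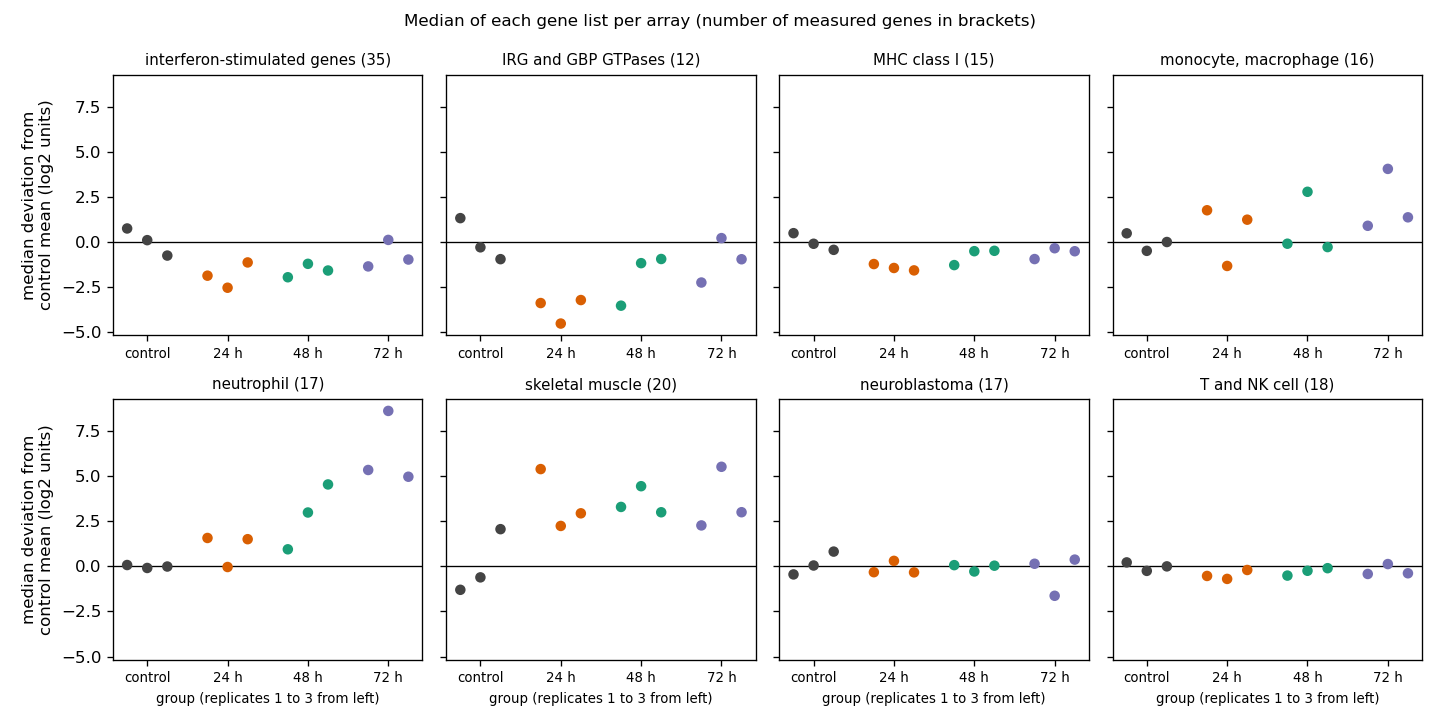
Median deviation from the control mean (vertical axis, log2 units) of 8 gene lists on each array, with replicates 1 to 3 from left in each group. Interferon-stimulated genes are below 0 in 8 of 9 HIFU tumors, the lowest values of IRG and GBP GTPases and of MHC class I genes are at 24 h, and neutrophil genes are highest at 72 h.

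Upstream steps of the pathway were described with separate gene lists. None of the genes named in the rest of this section passed an adjusted p of 0.05 in limma unless said otherwise, and the backgrounds given above apply. Of 18 measured genes for type I and III interferons, the median difference was -0.005, -0.015 and -0.043 at the 3 times, and at an unadjusted p under 0.05 there were 2, 1 and 0 lower and 0, 1 and 0 higher. Of these 18 probe sets, 9 were in the lowest 25% of the array by mean signal, and the list median per array was 3.23 to 3.84, so small differences here do not show that the genes were unchanged. Ifnb1, the gene of interferon beta, read 3.42, 3.49 and 3.46 in controls, 3.91, 3.54 and 4.23 at 24 h, 3.98, 3.15 and 4.02 at 48 h, and 3.51, 3.50 and 3.52 at 72 h. The 24 h tumors were all above the controls, but by 0.44 ± 0.27 on average, with a limma adjusted p of 0.619. Ifna1 differed by -0.61, -0.87 and -0.43, Ifna4 by -0.54, -0.32 and -0.08, and Ifna5 by 0.30, 0.72 and 0.05.

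Of 10 receptor and kinase genes, the median difference was 0.26, 0.36 and 0.57. At an unadjusted p under 0.05, 1, 0 and 4 were higher and none lower. The 72 h tumors were uneven here too, with median deviations from the control mean of 0.19, 1.25 and 0.21 in replicates 1 to 3. The receptor chain Ifnar1 differed by -0.38, -0.58 and 0.20 and overlapped the controls at each time. Its partner Ifnar2 differed by -0.61, -0.11 and 0.26, below all controls at 24 h and overlapping them later. Jak1 differed by 0.99, 0.92 and 1.26 ± 0.54, with limma adjusted p of 0.585, 0.477 and 0.415, and Tyk2 by 0.09, -0.30 and 0.0033. Ifnlr1, the interferon lambda receptor, differed by 0.75, 0.28 and 0.93, and Ifngr2, a chain of the interferon gamma receptor, by 0.26, 0.52 and 0.55.

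Of 19 genes for the induction of interferon, 5, 4 and 1 were lower at an unadjusted p under 0.05 and none higher, and the medians were -0.43, -0.49 and 0.24. Tlr3, an endosomal RNA receptor that interferon also induces, read 11.03, 10.31 and 7.67 in controls and between 6.64 and 8.68 in the HIFU tumors. It was below all controls at 24 h and 48 h, and differed by -2.69, -2.66 and -2.10 ± 0.73 (limma adjusted p = 0.293, 0.224 and 0.351). Mavs, the mitochondrial adaptor of RNA sensing, differed by -1.30, -1.73 and -1.13, Irf1, a factor induced by interferon gamma, by -2.03, -0.83 and -1.04, and Irf3, which switches on interferon beta, by -0.71, -0.90 and -0.43.

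Of 14 inhibitors of the pathway, the medians were -0.065, -0.0083 and 0.023, with 2, 2 and 3 lower and 0, 1 and 0 higher at an unadjusted p under 0.05. Socs1, a feedback inhibitor of JAK kinases, read 4.33, 4.38 and 4.43 in controls and between 3.48 and 3.90 in all HIFU tumors. The groups were apart at each time, with differences of -0.82, -0.61 and -0.79 ± 0.18 and limma adjusted p of 0.204, 0.228 and 0.255. Irf2, a repressor of interferon targets, differed by -0.16, -0.82 and -0.51, and Rnaseh2a, a nuclease that limits self nucleic acid, by -1.36, -0.68 and -1.43.

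Of 63 further interferon-induced genes outside the set of 35, the median was -0.72, -0.59 and -0.067, with 22, 15 and 7 lower and 1, 1 and 3 higher at an unadjusted p under 0.05. Mov10, an RNA helicase, differed by -1.71, -1.66 and -0.95, Parp12 by -2.28, -1.37 and -0.28, and Oas1b, a relative of Oas1a, by -1.51, -2.11 and -1.49. Adar, the RNA editing enzyme with an interferon-induced form, differed by -0.50, -0.17 and -0.16. Not all of the 63 were lower: 13, 15 and 28 had a higher mean than the controls at the 3 times. Their differences ran from -2.81 to 3.68, -2.77 to 3.91 and -1.49 to 3.30 over the whole list.

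**Figure D5:**
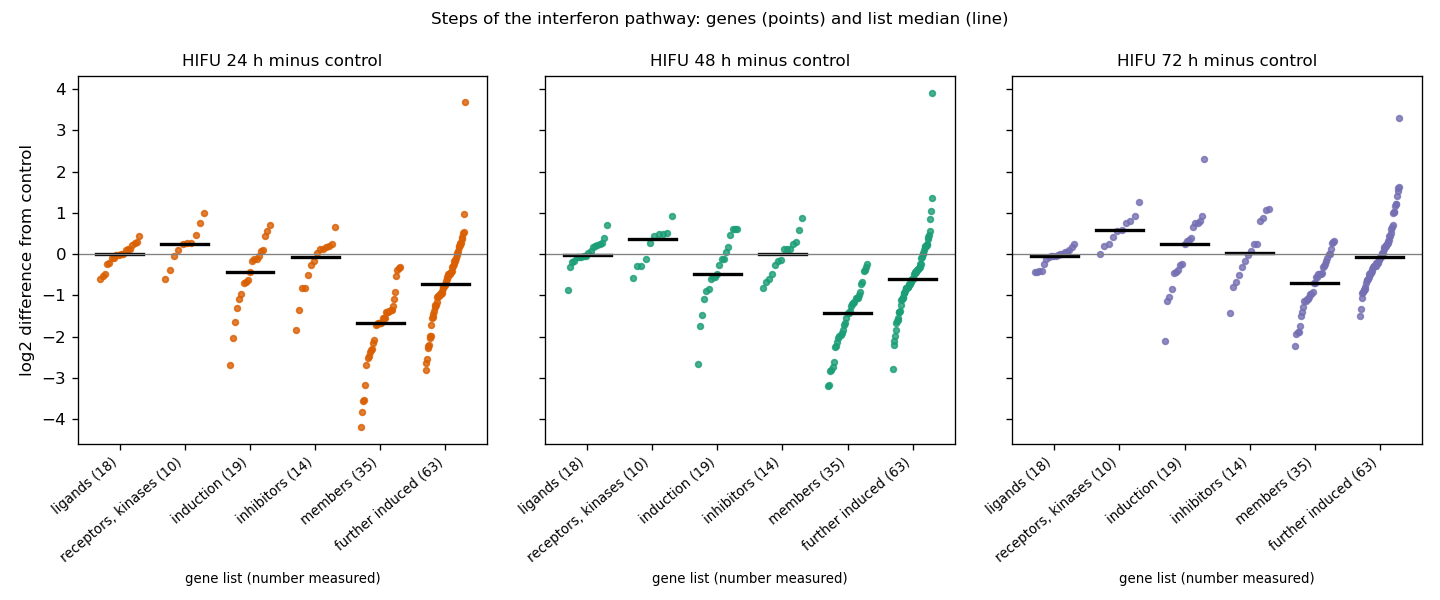
Log2 difference from control (vertical axis) of each gene in 6 lists of the interferon pathway at 24, 48 and 72 h, with a line at the list median. The medians of ligands, of whose 18 probe sets 9 are among the lowest 25% in signal, lie at -0.005, -0.015 and -0.043, and those of the 35 interferon-stimulated genes (members) at -1.67, -1.44 and -0.70.

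Among 12 IRG and GBP GTPases, which interferon gamma induces strongly, the median difference was -3.96 at 24 h, -1.81 at 48 h and -0.97 at 72 h, and Igtp read 10.35, 8.70 and 8.23 in controls against 4.88, 4.29 and 5.62 at 24 h. Igtp differed by -4.16 ± 0.76 at 24 h, -1.80 at 48 h and -1.26 at 72 h (limma adjusted p = 0.124, 0.347 and 0.572), while Irgm1 differed by -3.50, -2.02 and -1.26 and Iigp1 by -4.16, -1.96 and -1.07. Among 15 genes of MHC class I and peptide loading, the medians were -1.57, -0.94 and -0.52. H2-K1, a classical class I chain, differed by -2.02 ± 0.34 at 24 h (limma adjusted p = 0.0956), -0.94 at 48 h and -0.52 at 72 h. H2-D1, another class I chain, differed by -2.11, -0.66 and -0.10, and Tap2, a subunit of the peptide transporter, by -1.81, -1.81 and -1.51. Among 14 genes of the interferon gamma signal core and its chemokines, the medians were -0.25, 0.0033 and -0.07, and Cxcl9, a T cell attractant, differed by -5.27 ± 1.21 at 24 h, -1.88 at 48 h and by less than 0.01 at 72 h, with limma adjusted p of 0.213, 0.523 and 1. The related chemokine Cxcl11 differed by -0.90, -0.90 and -0.63 at a low signal, and Socs1, also on this list, is given above. Whether the 35 genes differ from these sets was not tested.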

How the data were processed

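RNA from 12 tumors was measured on 1 array each. The authors deposited 1 log2 signal per probe set and array, for 22206 probe sets. Base 2 was read from their range (1.75 to 19.93) and is not given in the sources used here. Transcriptome Analysis Console 4.0 is named per the submitters' processing notes, and the sources used here do not give the summarization, background correction or normalization. Array medians lay between 5.43 and 5.68, and no scaling was added. Where arrays are normalized to one another, a change shared by all genes is mostly lost. The number of arrays, 3 per group, limits the precision. Platform annotation gave 1 symbol for 19572 probe sets and none for 2634, and all 19572 were found in a RefSeq table of GRCm38.p6.

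A mean per group was fitted to all 12 arrays with limma 3.58.1 in R 4.3.3 (lmFit, eBayes, prior degrees of freedom 3.37), two-sided, with Benjamini-Hochberg adjustment over all 22206 probe sets and a threshold of 0.05. Control was set against each HIFU group and against their average, the HIFU groups were set against each other, and an F test covered the 3 differences from control. The fit was tested on simulated data. Genes are ordered by role, and the 2 with the smallest F test p in each role are given array by array. In other lists, the 3 with the smallest F test p and fixed pathway genes are named. Figures were drawn in Python 3.11.15 with matplotlib 3.10.9.

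The genes, lists and motifs were chosen with earlier results of these data known, so no list was given a test of its own. Alternatives were quantile normalization, median centring, array weights, a filter on the lowest 25% of probe sets, averaging probe sets per gene, an intensity trend with robust estimation, only the groups compared, a replicate block, a muscle covariate, and each array left out. Non-overlap counts under these were added after seeing the data. Replicate numbers did not pair the samples.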

Additional observations from a re-analysis of the deposited data

How the results depend on the processing

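The median differences kept their sign under every alternative run. With 1 array left out they ran from -2.06 to -1.31 at 24 h, -1.92 to -1.22 at 48 h and -1.15 to -0.31 at 72 h. They moved by less than the SD between replicates, which was 0.727, 0.593 and 0.757 at the 3 times. At 72 h this SD is larger than the median difference itself (-0.70), so a move within it says little there. The number of genes past the threshold was 0 in each contrast. With array weights it was 23, 16 and 15 at the 3 times, 28 for the mean of the HIFU groups and 21 in the F test. These weights gave control 3 the least weight of the controls. At an unadjusted p under 0.05 with a 2-fold change it was 25, 21 and 10. Leaving out 1 array gave 0 to 7 at 24 h, 0 to 8 at 48 h, 0 to 3 at 72 h, 0 to 9 for the mean of the HIFU groups and 0 to 4 in the F test. The highest of each came without control 3, and leaving out replicate 2 at 24 h gave 1 for the mean (0.0721% of probe sets). Non-overlap at 72 h held for 3 genes, 6 after median centring (17.4% of probe sets), and 3 to 22 with 1 array left out. Median centring moved the median of all probe sets to -0.20 at 72 h.

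Signs at 72 h turned for Ifih1 (-0.61 with array weights, -0.018 with median centring, -1.09 with the muscle covariate), Irf7 (-1.11, -0.14 and -1.86), Samhd1 (-0.15 with weights, -0.82 with the covariate), Sp100 (-0.99 and -1.0), Trim30a (-0.88 and -1.19) and Trim25 (0.19 with the covariate); the cause was not tested. With 1 array left out, the differences at 72 h ran from -0.67 to 0.58 in Ifih1, -1.15 to 0.0083 in Ifit2, -1.46 to 0.37 in Ifit3, -1.41 to 0.97 in Irf7, -0.76 to 0.19 in Parp14, -0.49 to 0.76 in Samhd1, -0.90 to 1.0 in Sp100, -0.33 to 0.03 in Trim25 and -0.92 to 1.06 in Trim30a. At 48 h they ran from -0.74 to 0.0067 in Ifih1 and -0.85 to 0.33 in Samhd1, and at 24 h from -1.21 to 0.058 in Rsad2.

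The replicate number as a block left the medians at -1.67, -1.44 and -0.70, and no gene passed. Correlations of same-numbered deviations ran from -0.61 to 0.63, with 4 of 18 pairs over 0.1, so the numbers were not taken as pairs.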
